A study of Mus musculus with 20 samples.

Results

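The genes described here are 6 signal transducers and activators of transcription, Stat2, Stat3, Stat4, Stat5a, Stat5b and Stat6, and 3 inhibitors that act in feedback on the same pathway, Socs1, Socs3 and Cish. They were chosen by name from the deposited table of counts, in which each name occurs once, so that they make up 9 of the 78409 genes listed. Their levels were followed in bone marrow-derived macrophages (BMDMs) given fractions of airway fluid.

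BMDMs were grown from the bone marrow of female wild-type C57BL/6J mice, seeded at 200000 cells per well and used on day 7 of culture. They received PBS, or fractions of bronchoalveolar lavage fluid (BALF) from RNY1+/+ or RNY1-/- mice with ovalbumin-induced airway inflammation, the latter carrying a CRISPR deletion of the Y RNA gene RNY1 on both alleles. The mice of the study were 7 to 16 weeks old, and the time from treatment to lysis is not stated in the labels or the methods. Polyadenylated RNA was sequenced with unique molecular identifiers, and total counts ran from 2510005 to 8277366 per library.

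There were 5 groups of 4 libraries: PBS as the control, and then, in the order kept below, EV_Fx_ from RNY1+/+ and RNY1-/- donors and Protein_Fx_ from RNY1+/+ and RNY1-/- donors. EV_Fx_, enriched for extracellular vesicles, pooled size exclusion fractions 1 to 4 and was given at 35000000 particles/µL. Protein_Fx_ pooled fractions 9 to 20 and was given at 0.75 µg/µL, so that the doses of the 2 kinds of fraction are in different units and were not matched. Both were stored for 5 days at 4 °C before use. The genotype belongs to the donor of the fluid, and the macrophages were wild type in every group. Whether the 4 libraries of a group come from separate mice, pools of fluid or wells is not stated, so p-values measure the spread between libraries, which may be technical.

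STATs are held inactive in the cytoplasm until Janus kinases at a cytokine receptor phosphorylate them, after which they pair, enter the nucleus and switch on genes. STAT2 works with IRF9 downstream of type I interferons, STAT3 downstream of IL-6 and IL-10, STAT4 downstream of IL-12, the STAT5 proteins downstream of GM-CSF and IL-3, and STAT6 downstream of IL-4 and IL-13. SOCS1, SOCS3 and CIS are made in response to STAT activity and block kinases or receptors, which shortens the signal in macrophages.

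Some libraries stood apart from their groups. Levels are in CPM, counts scaled to the total of each library, while log2 CPM were further scaled by TMM factors. In Euclidean distance over log2 CPM, PBS replicate 3 lay 70.6, 69.9 and 52.0 from replicates 1, 2 and 4. The latter were 26.0 to 38.4 from each other. RNY1-/- Protein_Fx_ fell into pairs, with 25.9 between replicates 1 and 2, 38.9 between 3 and 4, and 49.3 to 60.6 across. The remaining groups had distances of 24.1 to 43.1. Results on the members that rest on these libraries, and the list genes named by genotype in Protein_Fx_, are given with and without them.

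The 8 macrophage markers averaged at least 3 CPM each, and their sum was 8619.79 to 12967.5 CPM per library, led by Lyz2. In PBS replicate 3 the sum was 8990.03 CPM, below the 12151.9 to 12967.5 CPM of the other PBS libraries. The treated libraries, at 8619.79 to 10819.1 CPM, were also below those PBS libraries. Single markers went both ways. Group means of Lyz2 were 8415.62 CPM in PBS and 4578.09 to 5333.44 CPM with the fractions, and those of Adgre1 859.482 CPM and 2421.97 to 3203.09 CPM. RNA levels in bulk do not tell fewer cells of a type from less RNA per cell.

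Stat2, which carries the signal of type I interferons, was low in PBS, at 52.1, 65.7, 52.6 and 53.7 CPM in replicates 1 to 4. With EV_Fx_ it read 266, 261, 166 and 237 CPM for RNY1+/+ and 209, 228, 125 and 161 CPM for RNY1-/-. With Protein_Fx_ it read 270.1, 247, 261 and 248 CPM for RNY1+/+ and 259, 262, 166 and 189 CPM for RNY1-/-. Every treated library lay above every PBS library, each treated group overlapped the next in the order of means, and replicate 3 was the lowest library in 3 of the 4 treated groups. From low to high the group means were PBS (56.01 ± 6.47, SD, n = 4), RNY1-/- EV_Fx_ (181 ± 46.8), RNY1-/- Protein_Fx_ (219 ± 49.0), RNY1+/+ EV_Fx_ (232 ± 45.9) and RNY1+/+ Protein_Fx_ (257 ± 11.1).

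Stat2 rose with each of the 4 fractions. The log2 fold change of Stat2 against PBS came to 2.23 (standard error 0.16, adjusted p = 7.97e-07) for RNY1+/+ EV_Fx_ and 1.93 (0.18, adjusted p = 5.36e-06) with RNY1-/- EV_Fx_. For Protein_Fx_ it was 2.36 (0.11, adjusted p = 1.48e-08) with RNY1+/+ and 2.03 (0.16, adjusted p = 5.66e-06) with RNY1-/- fluid. The 4 PBS libraries are shared by these comparisons. Between genotypes Stat2 did not pass the test (adjusted p under 0.05), with -0.29 (0.17, adjusted p = 0.165) in EV_Fx_ and -0.32 (0.13, adjusted p = 0.201) in Protein_Fx_. The EV_Fx_ value was -0.43 (adjusted p = 0.0319) without RNY1+/+ EV_Fx_ replicate 3 and -0.15 without RNY1-/- EV_Fx_ replicate 3. It passed with no filter (-0.33, adjusted p = 0.00227) and with the replicate number as a block (-0.31, adjusted p = 0.00367). The Protein_Fx_ value was -0.56 (adjusted p = 0.00461) without RNY1-/- replicates 1 and 2, and -0.11 (adjusted p = 0.357) without replicates 3 and 4. It passed at -0.34 (adjusted p = 0.0358) with length and GC trends removed.

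Stat3, the STAT of IL-6 and IL-10, moved over a narrower range. PBS libraries held 69.7, 80.6, 40.9 and 56.6 CPM, with the lowest value in the distant replicate 3. EV_Fx_ libraries held 104, 95.03, 79.7 and 101 CPM for RNY1+/+ and 71.4, 69.3, 56.4 and 58.2 CPM for RNY1-/-. These 2 groups did not overlap, and the RNY1-/- libraries lay within the range of PBS. Protein_Fx_ libraries held 82.5, 80.6, 89.7 and 88.7 CPM for RNY1+/+ and 109, 111, 72.9 and 79.1 CPM for RNY1-/-, where replicates 1 and 2 were above and replicates 3 and 4 below every RNY1+/+ library. The order of means was PBS (62.0 ± 17.1), RNY1-/- EV_Fx_ (63.8 ± 7.60), RNY1+/+ Protein_Fx_ (85.4 ± 4.50), RNY1-/- Protein_Fx_ (93.0 ± 19.9) and RNY1+/+ EV_Fx_ (94.9 ± 10.8), and of these neighbours only RNY1-/- EV_Fx_ and RNY1+/+ Protein_Fx_ did not overlap.

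Stat3 rose against PBS with RNY1+/+ EV_Fx_ (log2 fold change 0.79, standard error 0.18, adjusted p = 0.00454) and RNY1+/+ Protein_Fx_ (0.63, 0.18, adjusted p = 0.0106). Without PBS replicate 3 these were 0.64 (adjusted p = 0.000651) and 0.47 (adjusted p = 0.00183). With RNY1-/- Protein_Fx_ it passed at 0.65 (0.21, adjusted p = 0.0338), but not without PBS replicate 1 or 4 or RNY1-/- replicate 1, 2 or 4 (0.57 to 0.71, adjusted p = 0.0543 to 0.0888), nor without replicates 1 and 2 together (0.42, adjusted p = 0.194). Without replicates 3 and 4 it was 0.85 (adjusted p = 0.0463). With RNY1-/- EV_Fx_ the value was 0.28 (0.18, adjusted p = 0.204), and it was 0.15 without PBS replicate 3 and 0.44 without PBS replicate 2. Between genotypes Stat3 fell by 0.50 in EV_Fx_ (0.10, adjusted p = 0.00132, 4 of 4 libraries below the other group) and was 0.04 in Protein_Fx_ (0.13, adjusted p = 0.908). That last value was -0.20 without RNY1-/- replicates 1 and 2 and 0.23 without 3 and 4, with neither passing. Between RNY1+/+ Protein_Fx_ and RNY1+/+ EV_Fx_ it was -0.16 (0.09, adjusted p = 0.149), or -0.23 (adjusted p = 0.0278) without EV_Fx_ replicate 3.

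Stat6, which carries the signal of IL-4 and IL-13, varied widely within groups. In PBS it read 44.5, 56.1, 15.8 and 32.0 CPM, and replicate 3 was again the lowest. With EV_Fx_ it read 22.5, 21.0, 14.8 and 27.9 CPM for RNY1+/+ and 11.4, 11.2, 13.3 and 6.90 CPM for RNY1-/-, with no overlap between the genotypes. With Protein_Fx_ it read 13.2, 8.87, 12.6 and 10.4 CPM for RNY1+/+ and 22.9, 24.3, 7.97 and 7.00 CPM for RNY1-/-. The RNY1-/- libraries therefore split into the same pairs as the distances, 1 pair above and 1 pair below every RNY1+/+ library. From low to high the means were RNY1-/- EV_Fx_ (10.7 ± 2.71), RNY1+/+ Protein_Fx_ (11.3 ± 1.99), RNY1-/- Protein_Fx_ (15.5 ± 9.33), RNY1+/+ EV_Fx_ (21.6 ± 5.38) and PBS (37.1 ± 17.3), each overlapping the next.

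Stat6 fell with RNY1-/- EV_Fx_ (log2 fold change -1.58, standard error 0.33, adjusted p = 0.00189) and with RNY1+/+ Protein_Fx_ (-1.55, 0.32, adjusted p = 0.00188), where all 4 treated libraries lay below PBS. With RNY1+/+ EV_Fx_ it was -0.60 (0.32, adjusted p = 0.146), and -0.84 (adjusted p = 0.00228) without PBS replicate 3 or -0.34 without PBS replicate 2. With RNY1-/- Protein_Fx_ it was -1.15 (0.43, adjusted p = 0.0606), passing at -1.38 (adjusted p = 0.00649) without PBS replicate 3 and at -1.43 (adjusted p = 0.0454) without RNY1-/- replicate 2. It also passed with DESeq2 (-1.17, adjusted p = 0.0256), in a fit over the 20 libraries (-1.13, adjusted p = 0.00768) and with no filter (-1.11, adjusted p = 5.91e-06), but not with total counts (adjusted p = 0.0573) or filterByExpr alone (adjusted p = 0.0601). With the replicate number as a block, though the numbers were not taken as pairs, it was -1.23 (adjusted p = 5.55e-06). The same comparison gave -2.20 (adjusted p = 0.0126) without RNY1-/- replicates 1 and 2 and -0.63 (adjusted p = 0.334) without 3 and 4. Between genotypes in EV_Fx_ Stat6 fell by 0.98 (0.19, adjusted p = 0.00145, 4 of 4 libraries below). In Protein_Fx_ its value was 0.45 (0.32, adjusted p = 0.501), which turned to -0.64 (adjusted p = 0.12) without replicates 1 and 2 and rose to 0.93 (adjusted p = 0.00114) without 3 and 4. Leaving out replicate 1 or 2 alone gave 0.25 and 0.16, and leaving out 4 alone gave 0.67. Stat6 was also lower with RNY1+/+ Protein_Fx_ than with RNY1+/+ EV_Fx_ (-0.95, 0.18, adjusted p = 0.000329, 4 of 4 libraries below).

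A test of interaction over the 16 treated libraries asked whether the effect of donor genotype differed between EV_Fx_ and Protein_Fx_. It passed for 2 of the 7 members tested, beside 33.0% of all genes. The Stat6 effect was 1.44 higher in Protein_Fx_ than in EV_Fx_ on the log2 scale (0.41, adjusted p = 0.0152), and that of Stat3 was 0.54 higher (0.17, adjusted p = 0.0201). Both passed without RNY1-/- Protein_Fx_ replicate 1, at 1.27 (adjusted p = 0.0414) for Stat6 and 0.50 (adjusted p = 0.046) for Stat3. Without replicate 2 neither passed, at 1.16 (adjusted p = 0.0526) for Stat6 and 0.47 (adjusted p = 0.0509) for Stat3, and without 1 and 2 together, chosen after seeing the data, they were 0.34 (adjusted p = 0.61) and 0.31 (adjusted p = 0.227). Without replicates 3 and 4 they were 1.91 (adjusted p = 3.68e-05) and 0.74 (adjusted p = 0.000309). For Stat2 the difference was -0.02 (0.24, adjusted p = 0.947), for Stat5a 0.27 (0.20, adjusted p = 0.309) and for Stat5b -0.07 (0.17, adjusted p = 0.782).

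Stat5a and Stat5b, the close relatives that serve GM-CSF and IL-3, moved over narrow ranges. Over the 20 libraries Stat5b ran from 24.0 to 35.6 CPM and Stat5a from 10.5 to 20.5 CPM, and each group overlapped its neighbour in the order of means for both genes. The highest Stat5a values were in RNY1+/+ EV_Fx_, at 13.1, 16.1, 19.2 and 20.5 CPM, beside 13.9, 15.8, 13.04 and 15.1 CPM in PBS and 12.3, 13.7, 11.6 and 10.5 CPM in RNY1-/- EV_Fx_. With Protein_Fx_ Stat5a read 12.4, 10.9, 13.6 and 12.8 CPM for RNY1+/+ and 11.3, 12.9, 11.2 and 11.3 CPM for RNY1-/-. Of the RNY1+/+ EV_Fx_ libraries, 3 lay above every PBS library and every RNY1-/- EV_Fx_ library, and all 4 RNY1-/- Protein_Fx_ libraries lay below PBS. Stat5a in RNY1+/+ EV_Fx_ reached 0.42 against PBS (0.16, adjusted p = 0.0527), and 0.54 (adjusted p = 0.0177) without its own replicate 1. It also passed with filterByExpr alone (0.44, adjusted p = 0.0485), with no filter (0.49, adjusted p = 0.0444) and in the fit over 20 libraries (0.41, adjusted p = 0.0130). With the other fractions it was -0.03 (RNY1-/- EV_Fx_), -0.05 (RNY1+/+ Protein_Fx_) and -0.24 (RNY1-/- Protein_Fx_, 0.14, adjusted p = 0.206), none of which passed. It was lower by genotype in EV_Fx_ (-0.44, 0.15, adjusted p = 0.0255), but not without RNY1+/+ replicate 4 (-0.33, adjusted p = 0.0861) or RNY1-/- replicate 4 (-0.41, adjusted p = 0.0625). In RNY1+/+ Protein_Fx_ it was lower than in RNY1+/+ EV_Fx_ (-0.46, 0.15, adjusted p = 0.0168). That call was lost without EV_Fx_ replicate 4 (adjusted p = 0.0559) or Protein_Fx_ replicate 2 (adjusted p = 0.0517). With length and GC trends removed Stat5a turned to 0.0486 by genotype in EV_Fx_ and to 0.0416 between the RNY1+/+ fractions. Against PBS it then turned to 0.46 with RNY1-/- EV_Fx_ and 0.43 with RNY1+/+ Protein_Fx_, both passing, as given below. Stat5b passed once, with RNY1-/- EV_Fx_ against PBS (0.27, 0.11, adjusted p = 0.0478), and this was lost when any of 7 of the 8 libraries was left out, the exception being PBS replicate 3. The call was also lost with the replicate number as a block (adjusted p = 0.0687). The other 3 Stat5b values against PBS were 0.30, 0.25 and 0.15, and without replicate 1 of RNY1+/+ EV_Fx_ the first passed at 0.41 (adjusted p = 0.0237).

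Stat4, the STAT of IL-12 in lymphocytes, was near the limit of detection. Its values ran from 0 to 2.00 CPM and from 0 to 11 counts over the 20 libraries, of which 5 were at or under the floor of 3 counts. It did not pass the filter on low counts in any comparison. Pooled over the libraries of a group, the ratio to PBS was 1.19 (95% interval 0.672 to 2.16, counting error only) with RNY1+/+ EV_Fx_ and 0.919 (0.482 to 1.76) with RNY1-/- EV_Fx_. With Protein_Fx_ it was 0.537 (0.226 to 1.19) for RNY1+/+ and 0.865 (0.422 to 1.74) for RNY1-/-.

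**Figure D1:**
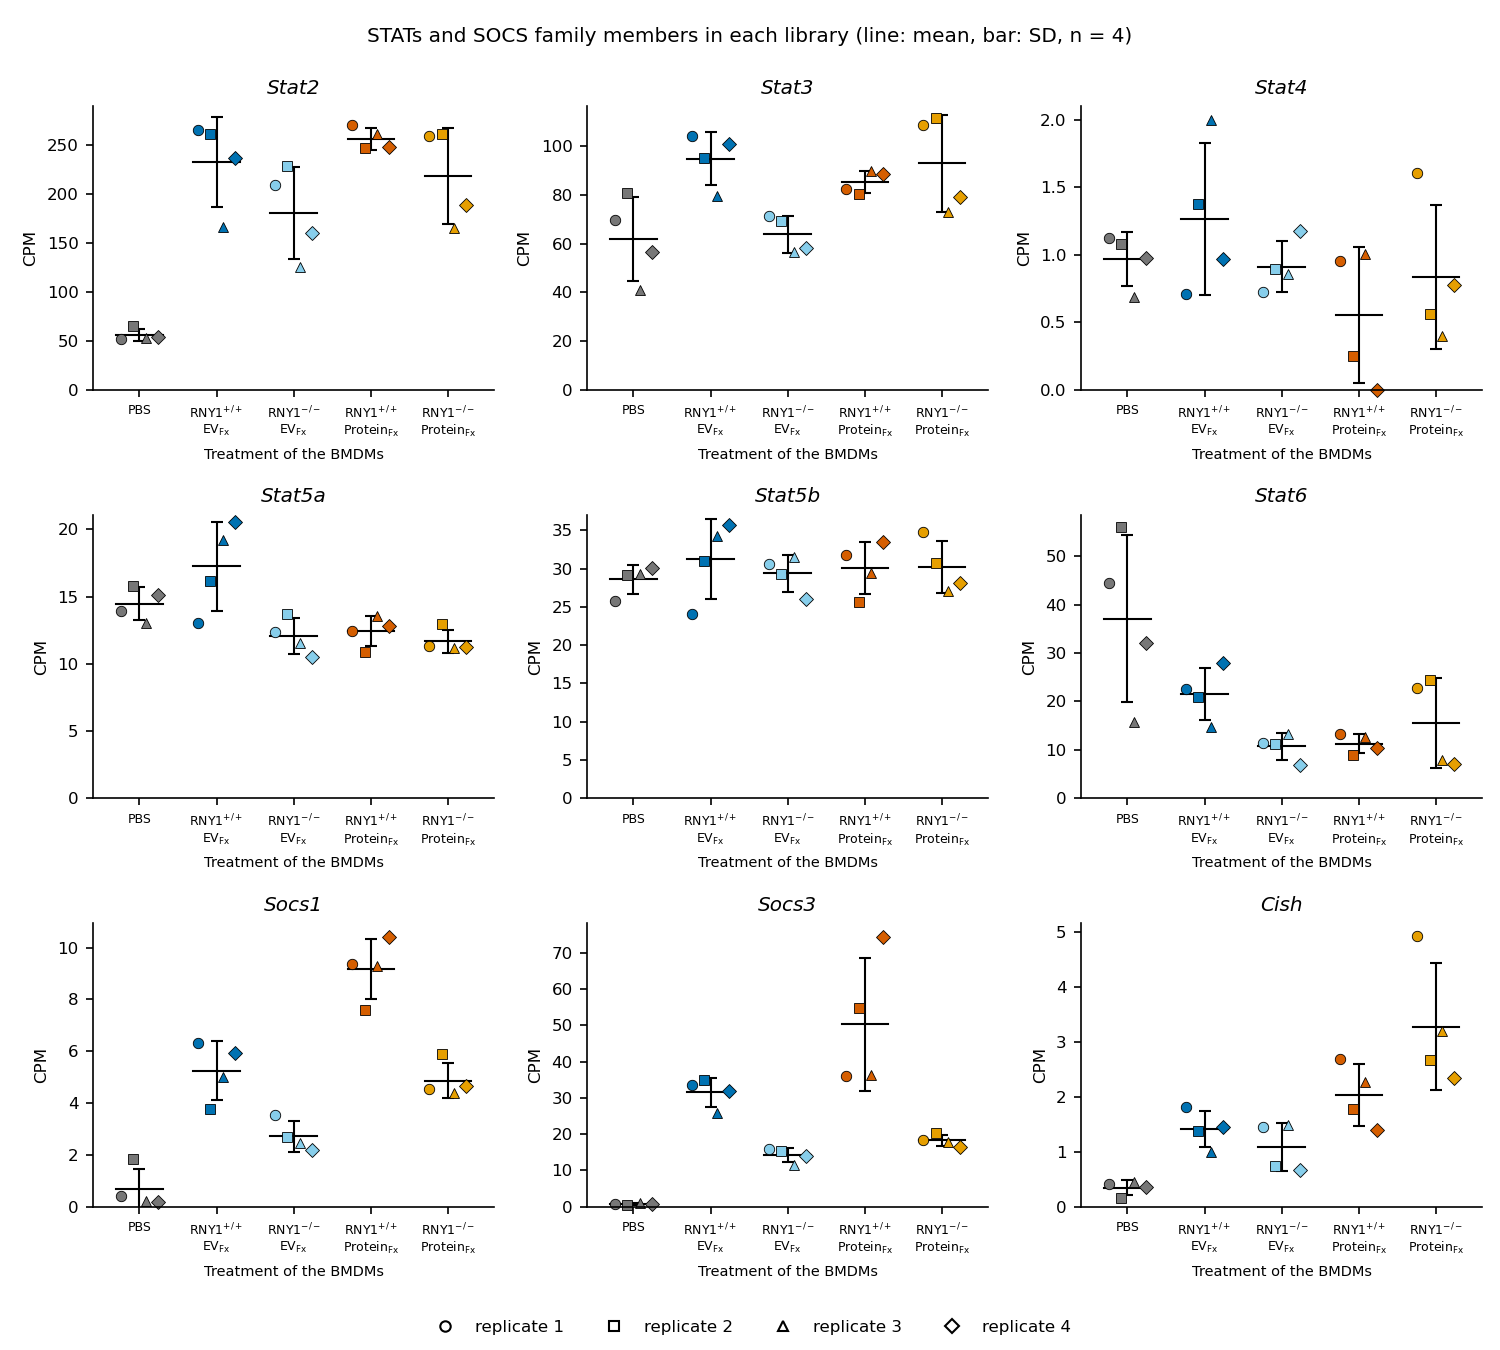
Level in CPM (vertical axis, linear) of each of the 9 genes in each library of the 5 treatment groups (horizontal axis). Symbols mark replicates 1 to 4, lines the mean and bars the SD; Socs3 stands at 0.618 to 1.14 CPM in PBS and at 11.6 CPM or more in every treated library.

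Among the inhibitors, Socs3, which blocks receptors of the IL-6 family and is itself induced by STAT3, showed the largest change. PBS libraries held 0.820, 0.618, 1.14 and 0.712 CPM, from 4, 4, 5 and 4 counts. EV_Fx_ libraries held 33.5, 35.0, 25.8 and 31.8 CPM for RNY1+/+ and 15.9, 15.5, 11.6 and 13.96 CPM for RNY1-/-. Protein_Fx_ libraries held 36.0, 54.7, 36.2 and 74.4 CPM for RNY1+/+ and 18.3, 20.4, 17.9 and 16.6 CPM for RNY1-/-. No 2 groups next to each other in the order overlapped, and within each fraction every RNY1-/- library was below every RNY1+/+ library. That order was PBS (0.823 ± 0.229), RNY1-/- EV_Fx_ (14.2 ± 1.95), RNY1-/- Protein_Fx_ (18.3 ± 1.58), RNY1+/+ EV_Fx_ (31.5 ± 4.03) and RNY1+/+ Protein_Fx_ (50.3 ± 18.3).

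Pooled over a group, the ratio of Socs3 to PBS was 40.3 (25.04 to 69.5, counting error only) with RNY1+/+ EV_Fx_ and 18.3 (11.3 to 31.8) with RNY1-/- EV_Fx_, and 64.9 (40.3 to 112) and 23.5 (14.5 to 40.8) with RNY1+/+ and RNY1-/- Protein_Fx_. The fitted log2 values against PBS, 5.45, 4.36, 6.11 and 4.54 in the order of the groups, add no support to these ratios, because Socs3 passed the filter on low counts through the treated groups alone. By donor genotype Socs3 fell by 1.07 in EV_Fx_ (0.12, adjusted p = 0.000199) and by genotype in Protein_Fx_ it decreased by 1.55 (0.23, adjusted p = 0.00172), with 4 of 4 libraries below in each. Without RNY1-/- Protein_Fx_ replicates 1 and 2 the latter was -1.60, and without 3 and 4 it was -1.52, and the test was passed both times. The EV_Fx_ value was smaller with length and GC trends removed, where Socs3 still passed but was no longer a DEG, as given below. The interaction was -0.49 (0.28, adjusted p = 0.178) and did not pass, but it passed at -1.09 (adjusted p = 0.0191) with length and GC trends removed. It was -0.21 without RNY1+/+ Protein_Fx_ replicate 4, the highest library. Socs3 was higher with RNY1+/+ Protein_Fx_ than with RNY1+/+ EV_Fx_ (0.68, 0.20, adjusted p = 0.00727), at 0.40 (adjusted p = 0.0353) without the same library.

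Socs1, which inhibits Janus kinases and limits interferon signals, read 0.410, 1.85, 0.229 and 0.178 CPM in PBS, from 2, 12, 1 and 1 counts. It read 6.33, 3.75, 5.01 and 5.92 CPM with RNY1+/+ EV_Fx_ and 3.55, 2.68, 2.46 and 2.19 CPM with RNY1-/- EV_Fx_. It read 9.38, 7.60, 9.30 and 10.4 CPM with RNY1+/+ Protein_Fx_ and 4.53, 5.87, 4.38 and 4.67 CPM with RNY1-/- Protein_Fx_. All treated libraries lay above all PBS libraries, and in both fractions the RNY1-/- libraries lay below the RNY1+/+ libraries. In the order PBS (0.668 ± 0.797), RNY1-/- EV_Fx_ (2.72 ± 0.587), RNY1-/- Protein_Fx_ (4.86 ± 0.683), RNY1+/+ EV_Fx_ (5.25 ± 1.14) and RNY1+/+ Protein_Fx_ (9.17 ± 1.16), the only neighbours to overlap were RNY1-/- Protein_Fx_ and RNY1+/+ EV_Fx_.

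Since PBS gave so few Socs1 molecules, ratios of pooled counts to PBS are given with intervals for counting error only. They were 7.04 (95% interval 4.20 to 12.6) and 3.73 (2.14 to 6.89) with RNY1+/+ and RNY1-/- EV_Fx_, and 12.4 (7.43 to 22.2) and 6.74 (3.94 to 12.3) with RNY1+/+ and RNY1-/- Protein_Fx_. Of the 16 PBS counts 12 came from replicate 2. Without it, a choice made after seeing the data, 4 PBS counts remained and the ratios were 19.6 (7.51 to 72.9), 10.4 (3.88 to 39.2), 34.6 (13.3 to 128) and 18.8 (7.10 to 70.3) in the same order. Against PBS Socs1 passed the filter in 1 comparison, through the treated group alone: with RNY1+/+ Protein_Fx_ it gave 3.77 (0.44, adjusted p = 3.41e-05), or 5.12 without PBS replicate 2. As 3 of the 4 PBS libraries held at most 3 counts, that value and its call carry no weight beyond the ratio. By donor genotype Socs1 fell by 0.85 in EV_Fx_ (0.23, adjusted p = 0.00782) and was -0.99 in Protein_Fx_ (0.19, adjusted p = 0.00888), 4 of 4 libraries below in each. In EV_Fx_ Socs1 passed the filter through the RNY1+/+ group alone (5.25 beside 2.72 CPM), so that call adds no support to these levels. The EV_Fx_ call was also lost with length and GC trends removed, as given below. The Protein_Fx_ value was -1.05 without RNY1-/- replicates 1 and 2 and -0.95 without 3 and 4, with the test passed in each case. The interaction was -0.14 (0.29, adjusted p = 0.732). With RNY1+/+ Protein_Fx_ the gene was higher than with RNY1+/+ EV_Fx_ (0.81, 0.19, adjusted p = 0.00183).

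Cish encodes CIS, an inhibitor induced by STAT5, and was counted a few times per library. PBS libraries held 2, 1, 2 and 2 counts, or 0.410, 0.154, 0.457 and 0.356 CPM. With EV_Fx_ it read 1.81, 1.38, 1.00 and 1.45 CPM for RNY1+/+ and 1.44, 0.745, 1.48 and 0.673 CPM for RNY1-/-. With Protein_Fx_ it read 2.68, 1.77, 2.26 and 1.39 CPM for RNY1+/+ and 4.91, 2.66, 3.19 and 2.33 CPM for RNY1-/-. Every treated library was above every PBS library, the treated groups overlapped their neighbours, and RNY1-/- Protein_Fx_ had the highest mean (3.27 ± 1.15). The means below it were PBS (0.344 ± 0.133), RNY1-/- EV_Fx_ (1.09 ± 0.436), RNY1+/+ EV_Fx_ (1.41 ± 0.331) and RNY1+/+ Protein_Fx_ (2.03 ± 0.564). Pooled ratios to PBS, with counting error only, were 4.42 (1.97 to 11.7) and 3.26 (1.38 to 8.89) with RNY1+/+ and RNY1-/- EV_Fx_. With Protein_Fx_ they were 6.13 (2.703 to 16.3) for RNY1+/+ and 10.1 (4.60 to 26.0) for RNY1-/-.

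Cish did not pass the filter in any comparison. As every PBS library held at most 3 counts, fold changes against PBS under looser filters are not given. Between the treated groups filterByExpr alone gave, by genotype, -0.37 (adjusted p = 0.385) in EV_Fx_, 0.60 (adjusted p = 0.339) in Protein_Fx_ and an interaction of 0.96 (0.47, adjusted p = 0.122). Among the 3 inhibitors chosen, Cish was the one whose Protein_Fx_ mean was higher with RNY1-/- fluid, a difference that did not pass the test.

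Counted over the members, differentially expressed genes (DEGs, which passed the test with a log2 fold change beyond 1 in either direction) came from 4 genes against PBS. With RNY1+/+ EV_Fx_ against PBS, 2 of 6 members tested were DEGs (Stat2 and Socs3), beside 16.4% of all genes tested, and 3 of 6 passed the test, beside 44.5%. With RNY1-/- EV_Fx_ 3 of 6 were DEGs (Stat2, Socs3 and Stat6), beside 22.5%, and 4 passed, beside 58.3%. With RNY1+/+ Protein_Fx_ 4 of 7 were DEGs (Stat2, Socs3, Socs1 and Stat6), beside 21.3%, and 5 passed, beside 55.2%. With RNY1-/- Protein_Fx_ 2 of 6 were DEGs (Stat2 and Socs3), beside 14.3%, and 3 passed, beside 35.7%. Socs3, and in 1 comparison Socs1, passed the filter against PBS through the treated group alone, so these shares say nothing of the set as a whole. Without PBS replicate 3, Stat6 and Socs1 joined the DEGs with RNY1-/- Protein_Fx_, which made 4. Leaving out PBS replicate 1 or 4 added Socs1 to them, and leaving out RNY1-/- replicate 2 added Stat6, which made 3. With RNY1+/+ EV_Fx_ the DEGs were 3 without any single PBS library, since Socs1 then passed the filter. In each of these fits Socs1 did so through the treated group alone, so its added calls add no support. Its means were 0.668 CPM in PBS, 5.25 CPM with RNY1+/+ EV_Fx_ and 4.86 CPM with RNY1-/- Protein_Fx_.

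By donor genotype in EV_Fx_, 1 of 7 members tested was a DEG (Socs3), beside 2.35% of all genes, and 5 passed, beside 52.1%: Stat3, Stat5a, Stat6, Socs1 and Socs3, each lower with RNY1-/- fluid. Of these, Socs1 passed the filter through the RNY1+/+ group alone, so its call adds no support. Without RNY1+/+ EV_Fx_ replicate 2 or RNY1-/- EV_Fx_ replicate 1 the DEGs were 3. By genotype in Protein_Fx_, 1 of 7 was a DEG (Socs3), beside 1.82%, and 2 passed (Socs3 and Socs1), beside 5.57%. Between RNY1+/+ Protein_Fx_ and RNY1+/+ EV_Fx_, 0 of 7 were DEGs by edgeR, beside 13.5%, and 4 passed (Stat5a, Stat6, Socs1 and Socs3), beside 63.3%.

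**Figure D2:**
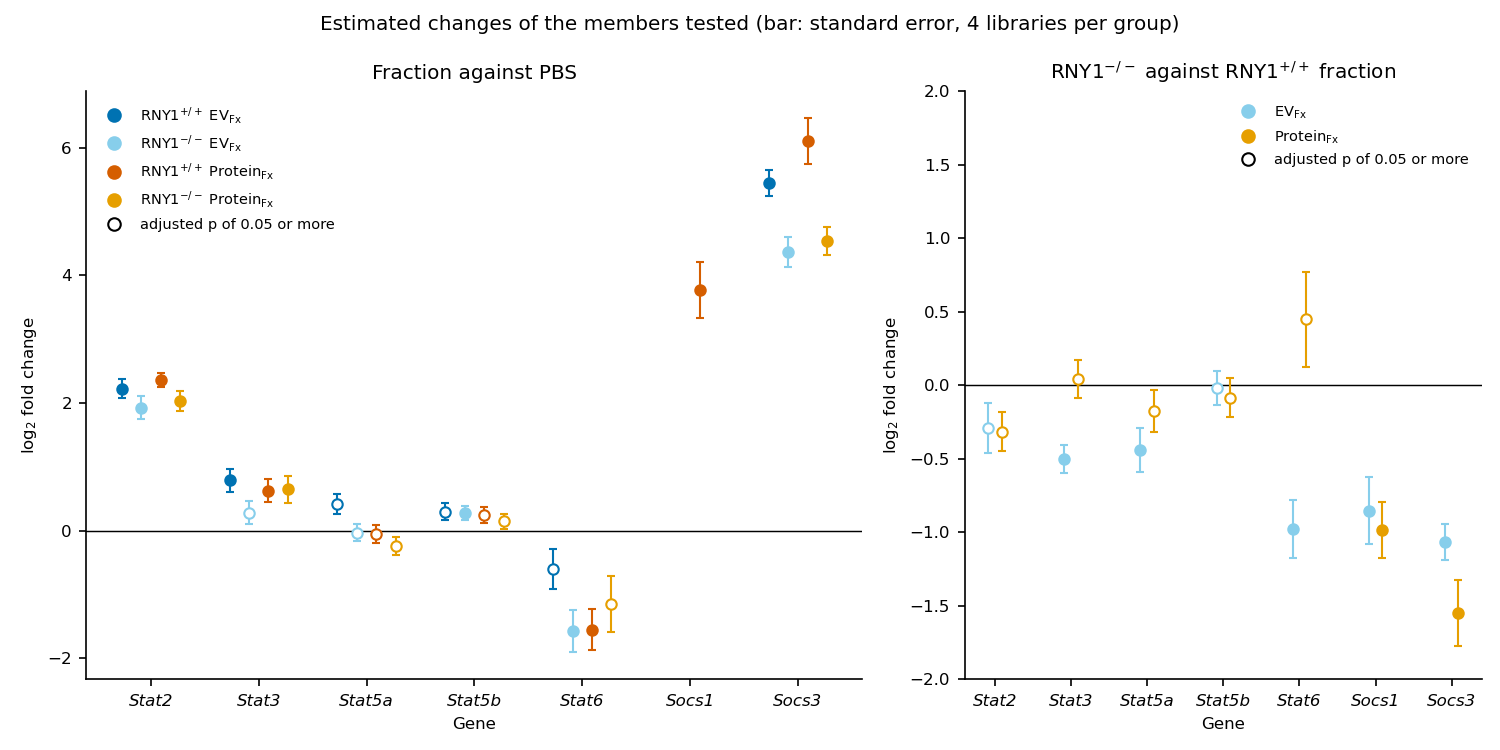
Estimated log2 fold change (vertical axis) of each member tested (horizontal axis), against PBS on the left and RNY1-/- against RNY1+/+ donors on the right, with bars for the standard error and open points where the adjusted p was 0.05 or more. Stat2 and Socs3 lie above 0 with all 4 fractions, and Socs1 and Socs3 lie below 0 by genotype in both fractions, before removal of length and GC trends.

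Base composition moved with several of these comparisons. The Spearman correlation of log2 fold change with transcript GC content over all genes was -0.65 by genotype in EV_Fx_ and 0.16 by genotype in Protein_Fx_. Against PBS it was -0.09 and -0.42 with RNY1+/+ and RNY1-/- EV_Fx_ and -0.46 and -0.50 with RNY1+/+ and RNY1-/- Protein_Fx_. Socs1 (58.8% GC), Socs3 (58.7%) and Stat5a (57.9%) were richer in GC than 95.7%, 95.4% and 93.3% of genes, and the other members held 45.4% to 53.7%, against a median of 48.6%. With length and GC trends removed, Socs3 by genotype in EV_Fx_ was -0.52 (adjusted p = 0.00503) and no longer a DEG, and Socs1 was -0.30 (adjusted p = 0.304). Stat6 (-0.66, adjusted p = 0.00759) and Stat3 (-0.33, adjusted p = 0.00949) still passed, while Stat5a turned to 0.05 (adjusted p = 0.814). In Protein_Fx_ the same removal left Socs3 at -1.62 and Socs1 at -1.07, both DEGs, and Stat2 passed at -0.34 (adjusted p = 0.0358). The interaction of Socs3 then passed at -1.09 (adjusted p = 0.0191), with Stat6 at 1.09 (adjusted p = 0.0278) and Stat3 at 0.36 (adjusted p = 0.0497).

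Against PBS, Stat2 stayed a DEG in the 4 comparisons after that removal, at 2.097 to 2.50. Stat5b passed with both Protein_Fx_ groups, at 0.45 (adjusted p = 0.00938) and 0.33 (adjusted p = 0.046). Stat5a turned to 0.46 (adjusted p = 0.0164) with RNY1-/- EV_Fx_ and 0.43 (adjusted p = 0.0312) with RNY1+/+ Protein_Fx_. Stat3 then passed with RNY1-/- EV_Fx_ at 0.52 (adjusted p = 0.00681), and Stat6 passed with RNY1+/+ EV_Fx_ at -0.64 (adjusted p = 0.0307) and with RNY1-/- Protein_Fx_ at -0.89 (adjusted p = 0.0445). The source of the GC trend was not tested. The share of mitochondrial counts also moved with the groups, at 5.58 to 7.32% in PBS with the highest in replicate 3, 3.80 to 4.99% in RNY1+/+ EV_Fx_ and 5.41 to 6.14% in RNY1-/- EV_Fx_, 2 groups that did not overlap. With Protein_Fx_ it was 4.75 to 5.32% for RNY1+/+ and 4.86 to 5.93% for RNY1-/-.

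Total counts in place of TMM factors shifted the median log2 fold change against PBS by -0.18, -0.24, -0.17 and -0.06 in the order of the groups given above. Stat2, Stat3 and Socs3 stayed above 0 and Stat6 below 0 against PBS under total counts, and Stat3 with RNY1-/- Protein_Fx_ was 0.59 (adjusted p = 0.0541). Stat5b lost its call with RNY1-/- EV_Fx_ (0.04, adjusted p = 0.806), and 4 values that had not passed changed sign, that of Stat5b by genotype in Protein_Fx_ and the interactions of Stat2, Stat5b and Socs1.

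The genes whose log2 CPM followed each member most closely over the 20 libraries are given as a description, out of 7551 genes with a mean of at least 10 CPM. For Stat2 they were Tor3a (r = 0.990), Clec4a1 (r = 0.989) and Tap1 (r = 0.988), and for Stat3 Lgals9 (r = 0.971), Lgals3bp (r = 0.961) and Ifitm3 (r = 0.956). For Stat6 they were Wdfy4, Ebp and Atp6ap1 (r = 0.962, 0.962 and 0.961), and for Socs3 Slco3a1, Elf4 and Mx1 (r = 0.988, 0.980 and 0.978). Likeness was lower for Stat5a, with Mvp, Mapk14 and Mdh2 (r = 0.867, 0.861 and 0.856). It was lowest for Stat5b, with Cyp4v3, Proser1 and Gtf2h2 (r = 0.788, 0.733 and 0.715). The points share treatment groups, depth and base composition. Stat4, Socs1 and Cish were below that mean.

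Promoters, taken as 250 bases before to 50 bases after the start, were found for 9 of 9 members in RefSeq (GRCm38.p6), with 12 promoters in all. They were searched on both strands for TTCNNNGAA, the core of sites that STAT dimers bind, and for GAAANNGAAA, the core of interferon-stimulated response elements, bound by complexes that hold STAT2 and IRF9. The first occurs in 8.30% of 32851 promoters and in those of 2 members, Socs3 and Cish. The second occurs in 3.44% of promoters and in those of 3 members, Socs1, Stat2 and Stat4. Only members whose treated libraries all lay above every PBS library have their stretch shown, and the share of all genes that do so was not counted. The choice therefore leaves out Stat4, whose match is given below. Stretches are shown with the match in capitals: Stat2 (chr10:128270248-128270347, plus strand), Socs1 (chr16:10785557-10785656, minus strand), Socs3 (chr11:117969457-117969556, minus strand) and Cish (chr9:107296654-107296683, plus strand).
Stat2: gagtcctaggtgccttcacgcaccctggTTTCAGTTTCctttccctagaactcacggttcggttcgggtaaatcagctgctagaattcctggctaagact
Socs1: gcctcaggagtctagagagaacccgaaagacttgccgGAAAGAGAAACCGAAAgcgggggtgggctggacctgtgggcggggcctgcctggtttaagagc
Socs3: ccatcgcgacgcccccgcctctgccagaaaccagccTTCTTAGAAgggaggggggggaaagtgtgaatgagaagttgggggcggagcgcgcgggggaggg
Cish: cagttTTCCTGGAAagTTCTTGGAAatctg

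In Stat2 the match begins 222 bases before the start and lies on the opposite strand. In Socs1 2 overlapping matches begin 83 and 77 bases before the start, and in Socs3 the match begins 154 bases before it. In Cish 2 matches begin at bases 1 and 12 of the first exon. In Stat4, with pooled ratios to PBS of 0.537 to 1.19, the match begins 97 bases before the start. A match is a description, not a site or a cause. The promoters of Stat5b, Stat5a and Stat3 lie together on chromosome 11, within 117 kb (chr11:100822521-100939790).

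Of the Janus kinases, which phosphorylate STATs, Jak2 rose against PBS with each fraction, at 2.40 (standard error 0.12) and 2.38 (0.13) with RNY1+/+ and RNY1-/- EV_Fx_ and 2.65 (0.14) and 2.096 (0.15) with RNY1+/+ and RNY1-/- Protein_Fx_. Tyk2, a kinase of the type I interferon receptor, rose by 1.14 (0.14, adjusted p = 7.92e-05) and 0.72 (0.15, adjusted p = 0.00181) with the EV_Fx_ pair. With the Protein_Fx_ pair Tyk2 was 0.06 and 0.22, which did not pass. Jak1 passed in all 4 comparisons at 0.35 to 0.63. Jak3 was tested against PBS with RNY1-/- Protein_Fx_ only, at 0.41 (adjusted p = 0.305). Without RNY1-/- Protein_Fx_ replicates 3 and 4 Jak1 did not pass with that fraction (0.41, adjusted p = 0.109). By genotype in Protein_Fx_ Jak2 passed at -0.54 (0.12, adjusted p = 0.0189), or -0.41 (adjusted p = 0.0519) without replicates 1 and 2 and -0.68 (adjusted p = 0.00112) without 3 and 4. In EV_Fx_ Jak1 (0.26) and Tyk2 (-0.41) passed in opposite directions.

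Most of the list of STAT2 partners and type I interferon targets was above PBS with each fraction, as Stat2 was. Of 12 genes tested, 11, 10, 11 and 11 were DEGs above PBS in the order of the groups given above and 0 below, with medians of 4.03, 3.90, 3.94 and 3.18 beside -0.03 over all genes each time. Ifit2, an antiviral protein, rose by 4.39, 4.85, 5.03 and 4.37, and Ifi44 by 4.36, 4.87, 5.53 and 4.92. Irf9, the DNA-binding partner of STAT2, named here after its values were seen, was among the genes that did not reach a DEG, at 0.88, 0.59, 0.55 and 0.47. By genotype in EV_Fx_ the list held 0 DEGs (edgeR), with a median of -0.22 and 2 genes passing in each direction. By genotype in Protein_Fx_ it held 4 lower DEGs, Rsad2 (-1.39, 0.11), Mx1 (-1.26, 0.12), Usp18 (-1.09, 0.13) and Ifit1 (-1.03, 0.26), with a median of -0.75 beside 0.02 over all genes. Without RNY1-/- replicates 1 and 2 these genes were -1.32, -1.21, -1.30 and -0.56, and without 3 and 4 they were -1.47, -1.32, -0.92 and -1.70, each passing the test. The list then held 4 lower DEGs (Oasl1 at -1.08, seen afterwards, in place of Ifit1) and 3 lower DEGs.

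Genes known as STAT3 targets in macrophages, Socs3 among them, held 8, 8, 11 and 10 DEGs above PBS of 12 tested and 0 below, with medians of 1.66, 1.51, 1.84 and 1.29. Socs3 and Nfil3 (2.65 CPM in PBS, named after its values were seen) were DEGs each time and passed the filter through the treated groups alone, so their calls add no support. Cebpb, a regulator of the acute phase, rose by 2.24, 2.30, 2.16 and 1.45. Il1rn, the receptor antagonist of IL-1, rose by 3.70 (0.22) and 2.15 (0.15) with RNY1+/+ and RNY1-/- Protein_Fx_ and was lower by genotype there (-1.53, 0.18, adjusted p = 0.000354), at -1.54 without RNY1-/- replicates 1 and 2 and -1.52 without 3 and 4. It and Socs3 were the 2 DEGs of the list by genotype in Protein_Fx_, joined without RNY1-/- replicates 3 and 4 by Cebpd (-1.06) and Tnip3 (-1.11), named after their values were seen, and Socs3 was the only one in EV_Fx_.

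For STAT5 targets the list was mixed, with 2, 1, 2 and 2 DEGs above and 2, 3, 0 and 1 below PBS among 7, 7, 8 and 8 tested, where the Protein_Fx_ counts include Socs2, which passed the filter through the treated groups alone. Pim1, a survival kinase, rose by 2.37, 2.09, 1.37 and 1.05 (the last 0.98, no longer a DEG, without PBS replicate 3), and Ccnd1, which encodes cyclin D1, was -3.21 (0.17) and -2.69 (0.15) with the EV_Fx_ pair. Medians lay between 0.26 and 0.32, but with RNY1+/+ and RNY1-/- Protein_Fx_ they were 0.16 and 0.21 without PBS replicate 3, and with the latter 0.10 without RNY1-/- replicates 1 and 2. By genotype the list held 1 lower DEG in EV_Fx_, Bcl2l1 (-1.07, 0.16), and 0 in Protein_Fx_ (edgeR, with 0 genes passing), where Bcl2l1 was a lower DEG (-1.03) without RNY1-/- replicates 1 and 2.

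STAT6 targets in macrophages were tested over different sets of genes in the 2 fractions, since some passed the filter in 1 of them only, through the treated group, so their counts and medians do not compare the fractions. With EV_Fx_ the list held 1 and 1 DEGs above and 4 and 4 below PBS of 7 tested, with medians of -1.80 and -1.33. Clec10a, named after its values were seen, passed the filter here through PBS alone (15.8 CPM, beside 2.23 and 1.99 CPM). Its calls add no support to these counts and medians. Without PBS replicate 3 the medians were -1.10 and -1.23, and with RNY1+/+ EV_Fx_ the DEGs above were 2 of 8 tested. Mrc1, the mannose receptor, was -3.52 (0.18) and -2.74 (0.18). With Protein_Fx_ it held 6 and 5 above and 2 and 0 below, of 10 and 9 tested, with medians of 1.21 and 1.37. Directly compared, RNY1+/+ Protein_Fx_ exceeded RNY1+/+ EV_Fx_ as DEGs in 7 of 10 genes of this list with 0 lower, some of which passed the filter through Protein_Fx_ alone, while Stat6 itself was lower. By genotype the list held 0 DEGs in EV_Fx_ and 1 higher DEG in Protein_Fx_, Clec10a (1.503, 0.26), named after its values were seen, at 1.40 without RNY1-/- replicates 1 and 2 and 1.56 without 3 and 4. Without replicates 1 and 2 the list held 3 higher DEGs, with Klf4 (1.12) and Mrc1 (1.07) added, and 1 lower, Il4i1 (-1.02), all likewise named afterwards, and without 3 and 4 it held 1 higher.

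**Figure D3:**
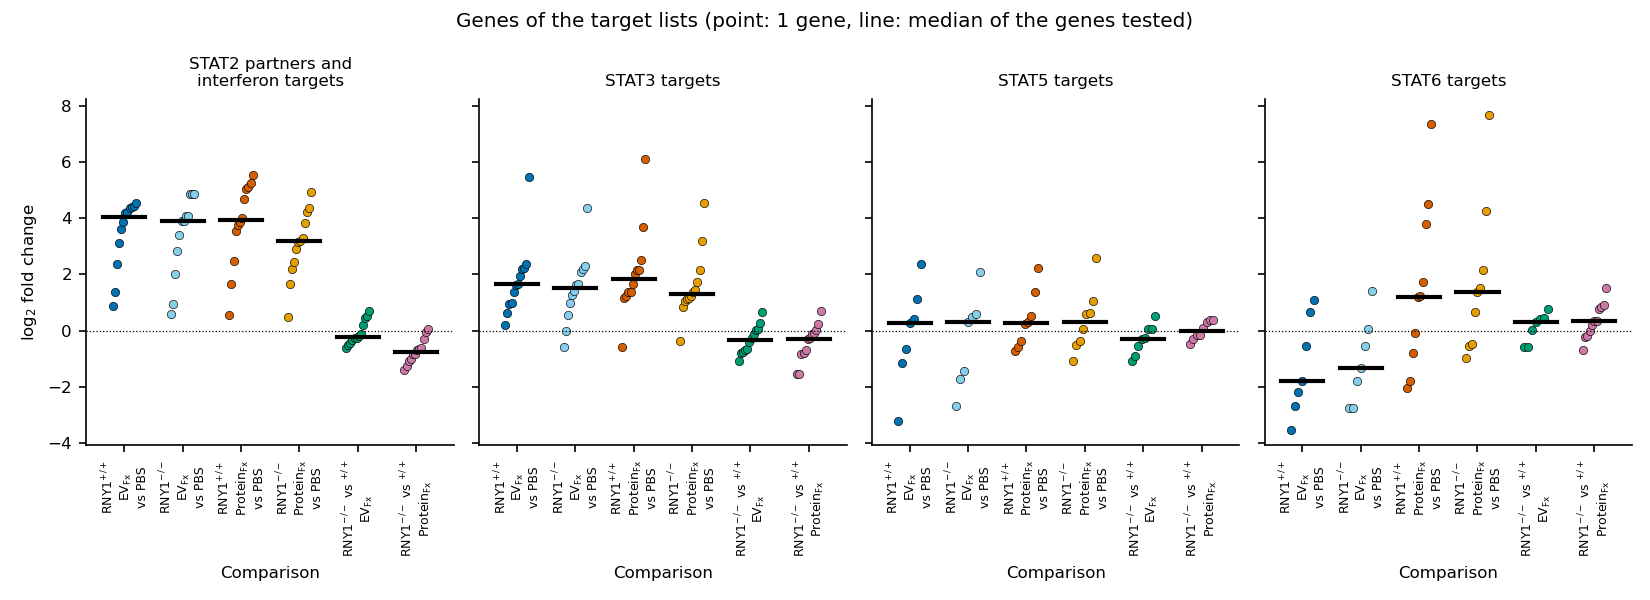
Log2 fold change (vertical axis) of each gene tested from the 4 target lists in 6 comparisons (horizontal axis), with a line at the median. Interferon targets lie above 0 against PBS in every comparison, with medians of 3.18 to 4.03, and STAT6 targets lie on both sides of 0 against PBS with each fraction.

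Cytokine receptors that signal through Janus kinases held 2, 2, 6 and 6 DEGs above and 4, 3, 1 and 1 below PBS, among 19, 19, 20 and 21 tested, with medians of 0.32, -0.01, 0.44 and 0.44. These counts do not compare the fractions either, since Il12rb1, named after its values were seen, was tested with Protein_Fx_ alone (6.32 and 6.49 CPM beside 0.243 CPM in PBS) although it had 4.16 and 3.19 CPM with EV_Fx_. Il3ra, also named afterwards, passed the filter through PBS alone (6.20 CPM, beside 1.28 to 2.55 CPM with the fractions). Its lower calls with the EV_Fx_ pair (-1.09 and -2.07) add no support. Il15ra rose by 2.67, 3.58, 3.69 and 2.81, and Il13ra1, a chain of the IL-13 receptor, by 1.35, 1.77, 1.67 and 1.81. Il6ra, the IL-6 receptor, was -1.36 (0.10) and -1.10 (0.11) with the EV_Fx_ pair, and Il4ra, the IL-4 receptor, was 1.22 (0.21) and 1.12 (0.24) with the Protein_Fx_ pair. The latter was no longer a DEG without PBS replicate 3 (0.94) or without RNY1-/- replicates 1 and 2 (0.90). Of the 24 ligands, 6, 6, 4 and 4 were tested against PBS and 3, 3, 0 and 0 were DEGs, each higher. Il12b and Il27 passed the filter against PBS through the EV_Fx_ groups alone, so these counts do not compare the fractions. Il12b, a subunit of IL-12, had 21.4 ± 3.30 CPM with RNY1+/+ EV_Fx_ and 0.114 ± 0.229 CPM in PBS, and Ebi3, a subunit of IL-27, rose by 1.81 (0.21) and 1.25 (0.21) with the EV_Fx_ pair. The remaining DEG, Il27, singled out after its values were seen, had 7.68 and 5.62 CPM with RNY1+/+ and RNY1-/- EV_Fx_, 3.71 CPM with RNY1+/+ Protein_Fx_, where it was not tested, and 1.23 CPM in PBS. By genotype the receptors and ligands held 0 DEGs in each fraction, but without RNY1-/- Protein_Fx_ replicates 3 and 4 each held 1 lower DEG in Protein_Fx_, Il15ra (-1.33) and Il27 (-1.02), seen afterwards. With 3.71 CPM in RNY1+/+ and 1.83 CPM in RNY1-/- Protein_Fx_ over all libraries, Il27 passed the filter through the higher group alone, so its call adds no support.

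Other negative regulators of the pathway held 2, 1, 2 and 2 DEGs above and 0, 1, 2 and 2 below PBS, among 17, 16, 17 and 16 tested, with medians of 0.11, 0.04, 0.06 and -0.03. Without PBS replicate 3 there was 1 above with RNY1+/+ EV_Fx_, and 2 above and 2 below with RNY1-/- EV_Fx_. The number below with RNY1+/+ Protein_Fx_ was then 3. With RNY1-/- Protein_Fx_ it was 4 without its replicates 1 and 2 and 0 without 3 and 4. Usp18, which detaches ISG15 and dampens the interferon receptor, rose by 3.13, 2.85, 3.56 and 2.45, and was the 1 DEG of the list by genotype in Protein_Fx_, but not without RNY1-/- replicates 3 and 4 (-0.92). In EV_Fx_ the DEG by genotype was Sh2b2, at 4.48 CPM with RNY1+/+ and 1.74 CPM with RNY1-/- fluid, and the other DEG above PBS with Protein_Fx_ was Socs2, at 5.06 and 6.64 CPM beside 1.11 CPM in PBS. Both were named after their values were seen and passed the filter through the higher group alone, so that their calls add no support to these levels.

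Markers of cells that could have come with the fluid or the marrow were mostly near 0. Of the 6 NK cell markers 0 averaged 3 CPM and Klrb1c and Prf1 were at 0, with sums of at most 1.51 CPM. B cell sums were at most 4.34 CPM, led by Cd79b, and dendritic cell sums at most 1.60 CPM, led by Dpp4, with 0 of 5 markers averaging 3 CPM in either list. Of 8 T cell markers 1 averaged 3 CPM, Cd28, while Cd3e never exceeded 0.398 CPM. The T cell sum, nearly all Cd28, was 319 to 412 CPM in PBS and 24.1 to 148 CPM in the treated libraries, and within RNY1-/- Protein_Fx_ it was 147, 148, 86.1 and 104 CPM in replicates 1 to 4, the same pairs as for Stat6. Eosinophil markers (1 of 5, led by Ccr3) summed to 7.17 to 13.5 CPM in PBS, 0.801 to 2.46 CPM with EV_Fx_ and 12.3 to 21.1 CPM with Protein_Fx_, with Epx at 0. Neutrophil markers (4 of 9, led by S100a8, with Ly6g at most 0.191 CPM) summed to 322 to 361 CPM in PBS, 155 to 219.8 CPM and 197 to 278 CPM with RNY1+/+ and RNY1-/- EV_Fx_, and 229 to 399 CPM with Protein_Fx_. Sums for fibroblasts (3 of 5, led by Col1a2) were 10.8 to 51.4 CPM and for airway epithelium (1 of 5, led by Krt18, with Sftpc at 0) 3.50 to 20.7 CPM. The part of these markers in the results was not tested.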

How the data were processed

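Gene-level values of 20 libraries of macrophages were taken from the table the authors deposited. The deposited expected counts came from fastp 0.24.0, STAR 2.7.11 and featureCounts (Subread 2.1.1) on GRCm39, without normalization, with reads mapping to several places shared as fractions. The deposited CPM are the counts scaled to the total of each library. Counts were rounded to whole numbers. Fractional counts occurred in at most 6 of 20 libraries for a member.

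Genes entered a comparison if filterByExpr (default settings) kept them and their deposited CPM averaged 3 or more in its 8 libraries. They were scaled by TMM and tested across all genes with edgeR 4.0.16 (glmQLFit, glmQLFTest; R 4.3.3), with Benjamini-Hochberg adjustment. Passing meant an adjusted p under 0.05, and DEGs also had to exceed 1 in log2 fold change, up or down. The interaction was fitted over 16 libraries. Each standard error is the log2 fold change divided by the root of its F. At or under 3 counts a gene was taken as not measurable. Pooled ratios carry exact 95% intervals.

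Alternatives were DESeq2 1.42.0, total counts, other filters, a fit over 20 libraries and the replicate number as a block in the edgeR design. Further ones were removal of length and GC trends (splines with 4 degrees of freedom, GENCODE GRCm38 transcripts) and leaving out libraries. The lists and the interaction were also tested, and ratios of Socs1 taken, without libraries that stand apart, alternatives chosen after seeing the data. The tests were tried on simulated data. From each list, up to 4 DEGs averaging 10 CPM or more were named, and every gene for the Janus kinases. The 3 most alike genes were ranked by Pearson r of log2 CPM (TMM, prior count 2). Members and lists were chosen with earlier results of these data known.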

Additional observations from a re-analysis of the deposited data

Results flagged for a closer look

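Within 45 groups of 4 values, 3 held a library far from the other 3 by the ratio of its gap to the range, where chance alone singles out about 1 in 20 groups. Stat2 in PBS replicate 2 stood at 65.7 CPM, with the nearest other PBS library at 53.7 CPM. Socs1 in PBS replicate 2 stood at 1.85 CPM, with the nearest at 0.410 CPM. Stat5a in RNY1-/- Protein_Fx_ replicate 2 stood at 12.9 CPM, with the nearest at 11.3 CPM. The effect of donor genotype differed between the fractions, by the test of interaction, for Stat3 (0.54 on the log2 scale) and Stat6 (1.44), 2 of 7 members beside 33.0% of all genes. Neither passed without RNY1-/- Protein_Fx_ replicate 2 (adjusted p = 0.0509 and 0.0526) or without its replicates 1 and 2 (0.31 and 0.34, adjusted p = 0.227 and 0.61).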

How the results depend on the processing

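Stat2 stayed a DEG above PBS with each of the 4 fractions in every setting run. Socs3 kept its calls against PBS as well, but they add no support where it passed the filter through the treated group alone. By genotype Socs3 stayed below in both fractions, passing the test each time. Apart from leaving out single libraries, member results kept direction and side of the threshold in 350 cases, gained the call in 22, lost it in 10 and turned in 15. Leaving out 1 library at a time the numbers were 434, 7, 18 and 21. The cause of these moves was not tested. At these depths Stat4, Cish and, in PBS, Socs1 and Socs3 rest on a few molecules, which limits what depth allows for these genes.

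Members called as DEGs came to 4 with RNY1+/+ EV_Fx_ and 5 with RNY1-/- EV_Fx_ against PBS when no filter was used. With RNY1-/- Protein_Fx_ they came to 4 (filterByExpr only) and 5 (no filter), or 2 to 4 leaving out single libraries. Beside these, DEGs over all genes without a filter were 3009 of 28589, 3798 of 28535 and 2258 of 27862 in the same order. The last comparison gave 1725 of 11782 with filterByExpr only. Socs1 and Cish rest on 1 to 12 and 1 to 2 counts per PBS library, so calls of these genes against PBS add no support. By genotype in EV_Fx_ the members called as DEGs were 2 with total counts, 2 with no filter, 0 with length and GC trends removed and 1 to 3 leaving out single libraries. By genotype in Protein_Fx_ they were 2 with trends removed, 2 without RNY1-/- replicates 1 and 2, and 1 to 2 leaving out single libraries. Between RNY1+/+ Protein_Fx_ and RNY1+/+ EV_Fx_ they were 2 with trends removed and 0 to 1 leaving out single libraries. The interaction passed for 3 members with trends removed and for 0 to 2 leaving out single libraries. Chosen after seeing the data, the fit without RNY1-/- Protein_Fx_ replicates 1 and 2 gave 0 members, with Stat6 at 0.34 and Stat3 at 0.31, and the fit without replicates 3 and 4 gave 2, with Stat2 turned to 0.19.

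Over all genes, DEGs without a filter were 3009 (RNY1+/+ EV_Fx_), 3798 (RNY1-/- EV_Fx_) and 3498 (RNY1+/+ Protein_Fx_) against PBS, 631 and 324 by genotype in EV_Fx_ and Protein_Fx_, and 2563 between the RNY1+/+ fractions. RNY1-/- Protein_Fx_ against PBS gave 920 without its replicates 3 and 4. By genotype in EV_Fx_ the number was 367 with filterByExpr only, 95 with trends removed and 91 to 350 leaving out single libraries. By genotype in Protein_Fx_ it was 406 without RNY1-/- replicates 3 and 4 and 116 to 249 leaving out single libraries.

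With length and GC trends removed Stat5a turned to 0.46, 0.43 and 0.21 against PBS (RNY1-/- EV_Fx_, RNY1+/+ and RNY1-/- Protein_Fx_), 0.0486 by genotype in EV_Fx_, 0.0416 between the RNY1+/+ fractions and -0.26 in the interaction. Stat5b turned to 0.19 by genotype in EV_Fx_ and 0.15 between the RNY1+/+ fractions. Without RNY1-/- replicates 1 and 2 Stat3 turned to -0.20 and Stat6 to -0.64 by genotype in Protein_Fx_. Total counts turned Stat5b to 0.00948 by genotype in Protein_Fx_ and the interaction to 0.14 (Stat2), 0.0998 (Stat5b) and 0.0325 (Socs1).

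Leaving out single libraries, values that crossed 0 ran from -0.0801 to 0.0196 (Stat5a, RNY1-/- EV_Fx_ against PBS), -0.098 to 0.0183 (Stat5a, RNY1+/+ Protein_Fx_ against PBS), -0.14 to 0.0568 (Stat5b, genotype in EV_Fx_), -0.0402 to 0.12 (Stat3, genotype in Protein_Fx_) and -0.15 to 0.0369 (Stat5b, between the RNY1+/+ fractions). In the interaction they ran from -0.16 to 0.11 (Stat2), -0.14 to 0.0443 (Stat5b) and -0.24 to 0.04999 (Socs1). None of these had passed.

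Libraries with the same replicate number in 2 groups did not deviate together throughout, with r of -0.392 to 0.641 and 21 of 40 above 0.1, so the numbers were not taken as pairs. In 2 of the 10 pairs of groups all 4 values were above 0.1, PBS with RNY1-/- EV_Fx_ and RNY1-/- EV_Fx_ with RNY1-/- Protein_Fx_. The highest values were in PBS with RNY1-/- Protein_Fx_, at 0.511, 0.623 and 0.641 for replicates 1 to 3, beside 0.018 for replicate 4. Of the 20 libraries 10 had their highest mean r at their own number. With the replicate number as a block the DEGs among the members were 2, 3, 4 and 3 against PBS, 1 and 1 by genotype and 0 between the RNY1+/+ fractions, and over all genes 1771, 2443, 2274, 1696, 225, 173 and 1430. Stat6 with RNY1-/- Protein_Fx_ against PBS was -1.23 (adjusted p = 5.55e-06), Stat2 by genotype in EV_Fx_ -0.31 (adjusted p = 0.00367) and Stat5b with RNY1-/- EV_Fx_ against PBS 0.27 (adjusted p = 0.0687) under the block. Over all genes, 6615 passed under the block with RNY1-/- Protein_Fx_ against PBS, beside 3878 without it.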
